A study of Mus musculus with 6 samples.

Results

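Glycolysis and the response to low oxygen share many genes, and 34 of them were followed here in mouse beta cells. The list held 13 glycolytic enzymes, 4 genes of the oxygen-sensing system and 17 other genes that are known to respond to hypoxia. All 34 were in the deposited expression table, and the 31 whose mean over the 6 libraries reached 1 FPKM are described, out of 11131 such genes among 23087. FPKM (fragments scaled to transcript length and to the fragments mapped in a library) corrects for transcript length, so levels of different genes can be set side by side. The 31 were the 13 enzymes, 3 of the 4 oxygen-sensing genes and 15 of the 17 others. Members were taken by gene symbol.

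Glycolysis splits glucose into pyruvate in the cytosol. In a beta cell this flux is the glucose sensor, because pyruvate is burnt in mitochondria and the ATP formed closes potassium channels and releases insulin; the enzymes that would turn pyruvate into lactate are normally kept low. The transcription factor HIF1A is made all the time and, while oxygen is present, is hydroxylated by the EGLN dioxygenases, bound by the ubiquitin ligase subunit VHL and destroyed. When oxygen falls, HIF1A persists, pairs with ARNT, binds short DNA elements with the core ACGTG or GCGTG, and raises most glycolytic enzymes together with genes for angiogenesis, mitophagy and collagen hydroxylation.

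Islets came from chow-fed females with a mixed 129J-C57BL/6 strain background, and their beta cells were isolated by FACS, with no gate given. Wild type (WT) mice were compared with RIP-Cre/FoxO1 floxed mice (IKO), whose beta cells lack FoxO1 because Cre is made under the rat insulin promoter; this promoter is known to act in some neurons as well, and the labels do not say whether WT mice carried Cre or floxed alleles. Each genotype gave 1 library at 3 months of age without pregnancies (nulliparous), 1 at 12 months nulliparous and 1 at 12 months after 3 pregnancies (multiparous). The multiparous WT library is also labelled NGT and the multiparous IKO library DM, so what these labels mark cannot be told apart from parity and genotype. The labels do not give the number of animals behind a library. With 1 library per group, a difference between a pair of libraries has no replicate behind it.

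The libraries were checked before the members were read. Foxo1 was at 5.67 to 8.93 FPKM in the WT and 0.410 to 0.656 FPKM in the IKO libraries. The 12-month nulliparous WT library stood apart, with correlations across genes of 0.955 to 0.961 to the other 5, while the closest pair, both 3-month libraries, reached 0.993; genes are not independent replicates. For parity, calls or log2 differences below are therefore also given without it. Of the beta cell markers, Ins1, Ins2 and Iapp were listed at 0 in every library, which is not credible for beta cells and may be a failed estimate, while Pdx1, Nkx6-1, Mafa, Ucn3 and Slc2a2 summed to 306 to 507 FPKM. Read totals were not used here, and the sequencing depth behind the values is unknown.

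**Figure D1:**
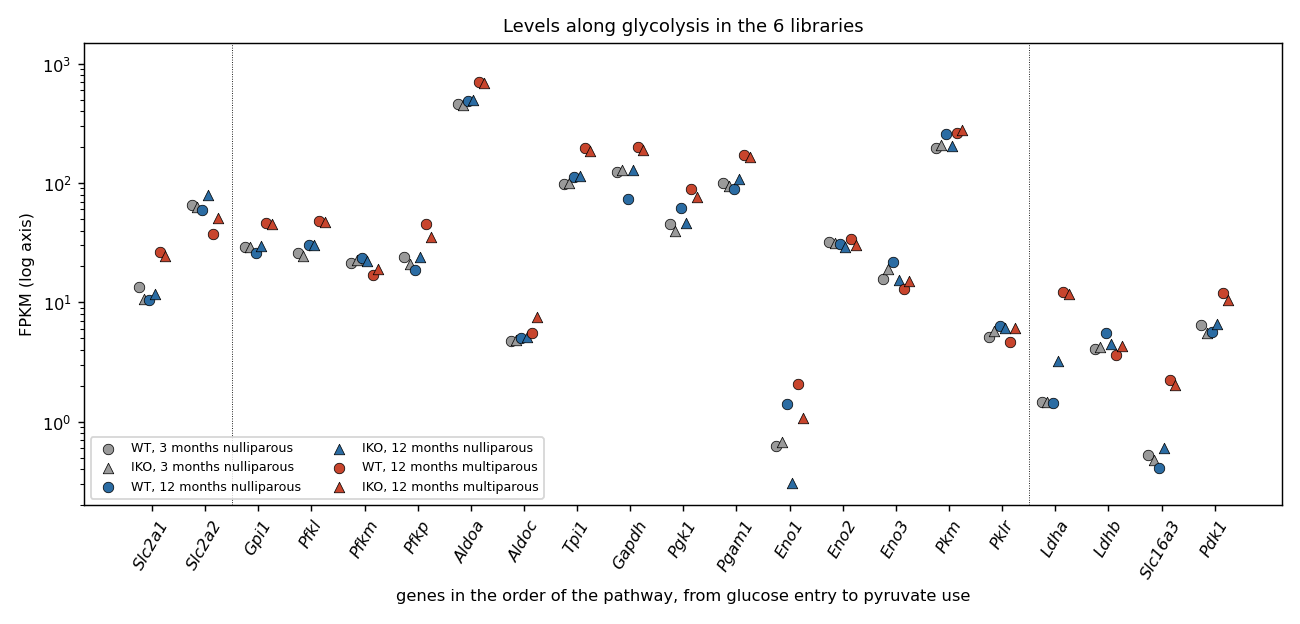
FPKM (log axis) of genes in the order of the glycolytic pathway in each of the 6 libraries; circles are WT, triangles IKO, grey 3 months, blue 12 months nulliparous and red 12 months multiparous, and dotted lines set off glucose entry and pyruvate use. The red points lie above the others for most enzymes from Gpi1 to Pkm, as for Tpi1 at 195 and 185 FPKM against 98.6 to 113 FPKM. They lie below the others for Pfkm and Eno3.

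The glycolytic enzymes were abundant and most were higher in both multiparous libraries than in all 4 nulliparous ones. Aldoa, the main aldolase, was the highest at 455 to 497 FPKM in the nulliparous and 699.6 and 687 FPKM in the multiparous libraries. Pkm, the pyruvate kinase of most tissues, stood next at 196 to 257 FPKM and at 262 and 276 FPKM. The 13 enzymes summed to 1156 to 1239 FPKM in the nulliparous libraries, to 1813 FPKM in the multiparous WT library and to 1764 FPKM in the multiparous IKO library.

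In the upper part of the pathway, Gpi1, which converts glucose 6-phosphate to fructose 6-phosphate, was at 25.7 to 29.9 FPKM in the nulliparous libraries and at 46.1 (WT) and 45.1 (IKO) FPKM in the multiparous ones. Pfkl, the liver-type phosphofructokinase that commits sugar to glycolysis, was at 25.9 (WT) and 24.6 (IKO) FPKM at 3 months, at 30.10 and 30.03 FPKM at 12 months nulliparous, and at 47.7 and 47.3 FPKM after pregnancies. Both multiparous values were thus more than 1.5 times the highest nulliparous one, and the genotypes lay close together at every stage. Pfkp, the platelet type, was at 18.7 to 23.8 FPKM and then at 45.0 (WT) and 35.0 (IKO) FPKM.

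Pfkm (chr15:98092589-98132447, build mm10), the muscle type, was lower. It was at 21.5 (WT) and 22.8 (IKO) FPKM at 3 months, at 23.4 and 22.4 FPKM at 12 months nulliparous, and at 16.8 and 19.1 FPKM in the multiparous libraries, the lowest values of the 6. Pfkm made up 29.4% to 33.4% of the summed phosphofructokinase FPKM in the nulliparous libraries, 15.3% in the multiparous WT library and 18.9% in the multiparous IKO library. The sum of the 3 isozymes was 68.2 to 76.2 FPKM in the nulliparous libraries and 109.6 (WT) and 101.4 (IKO) FPKM in the multiparous ones. The summed RNA thus held larger shares of Pfkl and Pfkp while its total was higher. The enzyme itself was not measured. Aldoc, the brain-type aldolase, stayed minor at 0.781% to 1.08% of summed aldolase FPKM.

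In the lower part, Tpi1, the isomerase of the triose phosphates (chr6:124810592-124814296), was at 98.6 (WT) and 99.6 (IKO) FPKM at 3 months, at 112 and 113 FPKM at 12 months nulliparous, and at 195 and 185 FPKM after pregnancies. Pgam1, the phosphoglycerate mutase, was at 100.2 (WT) and 93.5 (IKO) FPKM at 3 months, at 89.1 and 107 FPKM at 12 months nulliparous, and at 172 and 165 FPKM after pregnancies. For both genes the nulliparous values fell into a narrow band and the multiparous values lay clear of it. Pgk1, the kinase of the pathway's earlier ATP-forming step, was at 39.9 to 61.2 FPKM in the nulliparous libraries and at 88.3 (WT) and 76.5 (IKO) FPKM in the multiparous ones.

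Gapdh, often used as a reference gene, was at 123 to 128 FPKM in 3 nulliparous libraries, at 73.6 FPKM in the 12-month nulliparous WT library that stood apart, and at 199 (WT) and 189 (IKO) FPKM in the multiparous libraries. Its fold of 2.70 between the WT libraries at 12 months thus rests on a low denominator, and against the 3-month WT library it was 1.61. Eno2, the neuronal enolase, was the steadiest enzyme, at 29.3 to 34.3 FPKM, with the groups overlapping. Eno1 had a mean of only 1.03 FPKM and values of 0.304 to 2.08 FPKM with overlapping groups; the mouse genome holds a near-identical copy of it, so its reads may have been split and its level is uncertain. Gapdh, Tpi1, Pgam1, Pgk1, Aldoa, Pkm and Mif also have processed copies in the genome, and how shared reads were divided is not given in the sources used here.

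**Figure D2:**
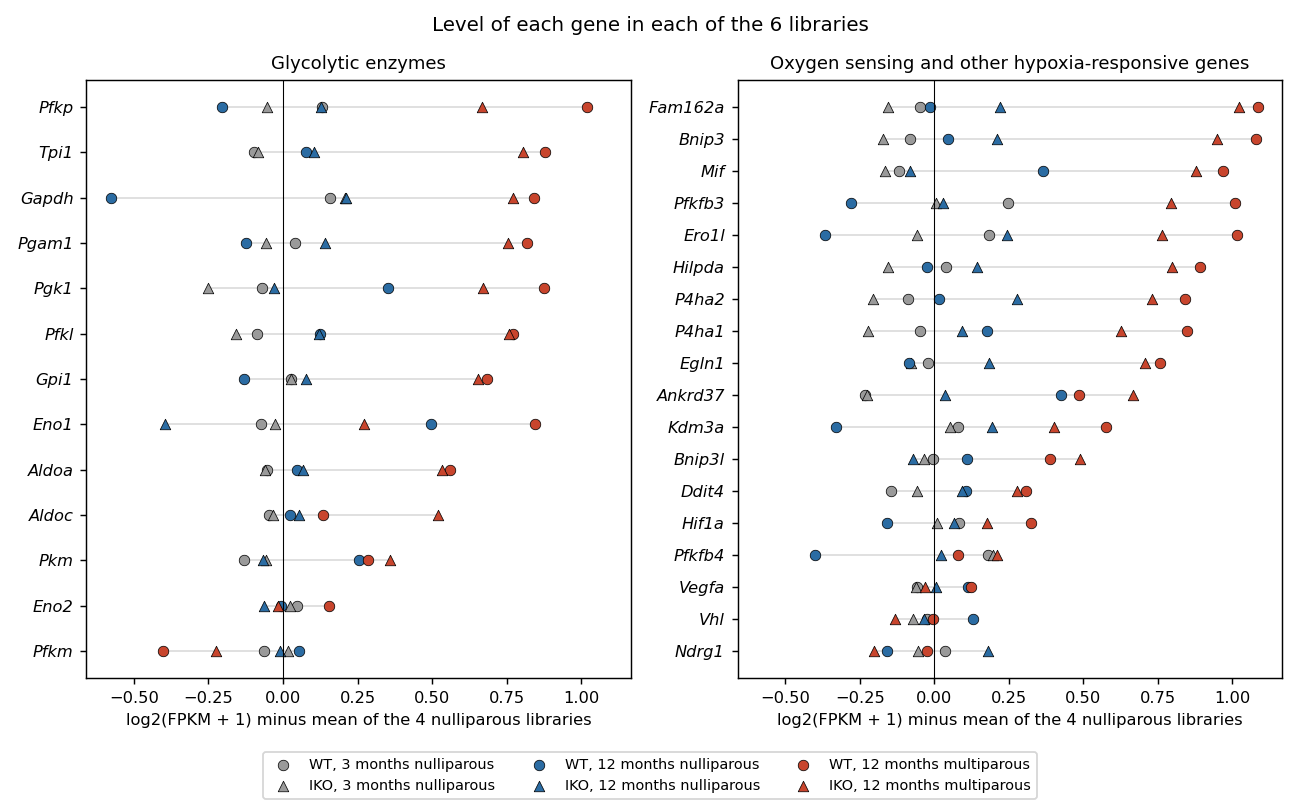
log2(FPKM + 1) of the 31 genes in each library minus the mean of the 4 nulliparous libraries, with glycolytic enzymes on the left and the other genes on the right; symbols and colours are WT circles, IKO triangles, grey 3 months, blue 12 months nulliparous and red 12 months multiparous. For 24 genes both red points lie to the right of all others, for Pfkm both lie to the left, and for 6 genes they overlap with the rest.

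Of the oxygen-sensing genes, Egln1, the main HIF hydroxylase and itself a HIF target, was higher in the multiparous libraries, at 26.7 (WT) and 25.7 (IKO) FPKM against 14.4 to 17.6 FPKM. Hif1a was at 18.7 to 22.3 FPKM in the nulliparous libraries and at 26.6 (WT) and 23.9 (IKO) FPKM in the multiparous ones. HIF1A is governed mainly through its protein, which RNA does not show. Vhl was level, at 8.28 to 10.1 FPKM with overlapping groups.

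Among the other hypoxia-responsive genes, both mitochondrial ones with a role in mitophagy were higher after pregnancies. Bnip3 (chr7:138890836-138909506, build mm10), an outer membrane receptor for mitophagy, was at 38.7 (WT) and 36.2 (IKO) FPKM at 3 months, at 42.3 and 47.5 FPKM at 12 months nulliparous, and at 87.6 and 80.1 FPKM in the multiparous libraries. Its relative Bnip3l was at 9.36 to 10.7 FPKM and then at 13.2 (WT) and 14.3 (IKO) FPKM. Fam162a (chr16:36043844-36071515), a mitochondrial protein induced by HIF1A, was at 37.1 (WT) and 34.4 (IKO) FPKM at 3 months, at 38.1 and 45.0 FPKM at 12 months nulliparous, and at 82.7 and 79.2 FPKM after pregnancies. Fam162a and Bnip3 had the widest gaps between the groups among the 31 genes, since their lower multiparous value was 1.76 and 1.68 times their highest nulliparous value.

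Pfkfb3 makes fructose 2,6-bisphosphate, the activator of phosphofructokinase. It was at 3.06 (WT) and 2.43 (IKO) FPKM at 3 months, at 1.82 and 2.49 FPKM at 12 months nulliparous, and at 5.88 and 4.93 FPKM after pregnancies. Pfkfb4, a second isozyme, showed no such difference, at 1.28 to 2.48 FPKM with overlapping groups. Pfkfb2, the isozyme that dominates in these cells, held 87.1% to 91.8% of the summed PFKFB FPKM in the nulliparous libraries and 78.9% (WT) and 80.7% (IKO) in the multiparous ones, while the Pfkfb3 share was 4.47% to 6.66% and then 14.5% (WT) and 12.3% (IKO). The sum itself was not higher, at 40.6 to 46.0 FPKM and then at 40.4 (WT) and 40.2 (IKO) FPKM. Pfkfb2 was at 37.3 to 40.1 FPKM and then lower, at 31.9 (WT) and 32.4 (IKO) FPKM.

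Hilpda, a lipid droplet protein that inhibits the lipase ATGL, was at 6.82 (WT) and 5.84 (IKO) FPKM at 3 months, at 6.48 and 7.42 FPKM at 12 months nulliparous, and at 13.1 and 12.2 FPKM after pregnancies. Mif, a secreted cytokine, was at 93.0 (WT) and 90.04 (IKO) FPKM at 3 months, at 130.4 and 95.4 FPKM at 12 months nulliparous, and at 198 and 187 FPKM after pregnancies. Both genes were thus highest in the multiparous libraries, and Mif had its highest nulliparous value in the library that stood apart.

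The collagen prolyl hydroxylase subunits P4ha1 and P4ha2 kept their proportion, with P4ha1 at 59.3% to 65.2% of their sum in all 6 libraries, while that sum was 29.3 to 38.8 FPKM in the nulliparous and 63.3 (WT) and 55.7 (IKO) FPKM in the multiparous libraries. Ero1l, the oxidase that forms disulfide bonds in the endoplasmic reticulum, was at 37.6 to 57.9 FPKM and then at 99.8 (WT) and 83.6 (IKO) FPKM. Ankrd37, an ankyrin repeat protein, Kdm3a, a histone demethylase, and Ddit4, an inhibitor of mTOR signalling, also had both multiparous values above all nulliparous ones, by smaller margins of 1.05, 1.17 and 1.13 times the highest nulliparous value.

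Not all known HIF targets were higher in both multiparous libraries than in the nulliparous ones. Vegfa, the angiogenic growth factor, was among the most abundant of these genes and was level at 205 to 234 FPKM in all 6 libraries. Ndrg1, a stress-responsive gene, was at 58.8 to 74.7 FPKM in the nulliparous libraries and at 64.7 (WT) and 57.0 (IKO) FPKM in the multiparous ones, without separation. The 3 genes left out by the threshold were Adm, Egln3 and Car9. Adm, which encodes the vasodilator adrenomedullin, lay just outside at a mean of 0.995 FPKM, as Eno1 lay just inside. Adm was at 0.257 (WT) and 0.225 (IKO) FPKM at 3 months, at 0.445 and 0.503 FPKM at 12 months nulliparous, and at 2.31 and 2.23 FPKM after pregnancies.

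HIF binds the cores ACGTG and GCGTG, and the 250 bases before each RefSeq start site (build GRCm38.p6) were searched for both on both strands; the palindrome CACGTG counts on each strand. RefSeq promoter windows were matched for 29 of the 31 genes, all but Ndrg1 and Bnip3l. A core stood in 72.1% of their 43 windows, against 57.3% of 11433 windows of genes past the expression threshold and 38.6% of all 32851 windows. The stricter core ACGTG stood in 46.5% of the members' windows, against 22.3% and 16.6%. It stood in 31.8% of the 22 windows of the enzymes and in 61.9% of the 21 windows of the other genes, while either core stood in 72.7% and 71.4%. The median GC content was 58.8% in the enzymes' windows, 66.4% in those of the other genes and 60% in those of genes past the expression threshold. Some windows of genes with several starts overlap, so not all windows are independent, and a match is a description of the letters only.

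Of the 8 genes that were at least 1.5-fold higher in the multiparous library of both genotypes (below), 7 of 10 windows held a core. The other members had a core in 24 of 33 windows (72.7%), so cores were not more frequent in the 8 genes. ACGTG alone stood in 6 of the 10 and in 14 of the 33 windows. No core was found in the windows of Tpi1 and Mif. Pfkm, lower in the multiparous libraries, holds cores as well. All windows of these 8 genes with at least 3 cores, 1 each of 5 genes, are shown 5′ to 3′ with the cores in capitals and the start site just after the last base, so that the number and spacing of the cores can be seen.
Fam162a, chr16:36071562-36071811, minus strand: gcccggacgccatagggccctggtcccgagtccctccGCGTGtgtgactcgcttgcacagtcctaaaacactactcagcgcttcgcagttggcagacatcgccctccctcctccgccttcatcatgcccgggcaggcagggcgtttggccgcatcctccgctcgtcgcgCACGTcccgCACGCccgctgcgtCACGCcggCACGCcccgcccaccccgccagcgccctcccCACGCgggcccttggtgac
Bnip3, chr7:138909507-138909756, minus strand: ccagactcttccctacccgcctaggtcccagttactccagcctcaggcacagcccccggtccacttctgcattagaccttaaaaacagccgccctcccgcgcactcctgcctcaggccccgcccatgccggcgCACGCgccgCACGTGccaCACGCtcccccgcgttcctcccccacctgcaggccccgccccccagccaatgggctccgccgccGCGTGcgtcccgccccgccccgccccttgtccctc
Pgam1, chr19:41911621-41911870, plus strand: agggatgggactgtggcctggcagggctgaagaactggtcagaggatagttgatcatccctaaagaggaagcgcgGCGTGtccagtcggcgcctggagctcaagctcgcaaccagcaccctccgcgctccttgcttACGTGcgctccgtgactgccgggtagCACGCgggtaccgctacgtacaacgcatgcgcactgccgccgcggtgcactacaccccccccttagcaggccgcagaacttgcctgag
Pfkfb3, chr2:11502091-11502340, minus strand: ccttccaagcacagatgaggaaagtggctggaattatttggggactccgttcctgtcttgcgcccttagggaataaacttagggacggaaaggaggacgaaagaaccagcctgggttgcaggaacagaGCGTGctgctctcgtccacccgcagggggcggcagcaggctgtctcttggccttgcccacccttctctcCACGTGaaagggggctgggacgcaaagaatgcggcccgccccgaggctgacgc
Hilpda, chr6:29272376-29272625, plus strand: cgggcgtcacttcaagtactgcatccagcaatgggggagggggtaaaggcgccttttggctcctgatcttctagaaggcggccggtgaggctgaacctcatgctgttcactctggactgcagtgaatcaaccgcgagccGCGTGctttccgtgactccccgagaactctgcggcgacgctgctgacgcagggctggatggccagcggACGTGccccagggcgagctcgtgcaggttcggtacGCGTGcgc
Fam162a holds 6 cores, between 213 and 19 bases before the start, of which 1 is ACGTG. The 5 cores of Bnip3 lie between 117 and 35 bases before it and include CACGTG, counted on both strands, which also stands in the window of Pfkfb3. The core of Hilpda nearest to its start begins 8 bases before it. The windows of Pfkfb3 and Hilpda belong to 1 of 2 RefSeq starts of each gene.

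At 12 months, 1 multiparous library was compared with 1 nulliparous library in each genotype. In this comparison parity cannot be told apart from what the labels NGT and DM mark, or from other differences between single libraries. Ratios were taken as log2 of FPKM + 1, which understates the change of low genes, and genes were counted from 1.5-fold. Between the WT libraries, 16 of the 31 genes were at least 1.5-fold higher in the multiparous one, where 8.12% of all genes were, and none was lower by as much, where 9.87% were. Between the IKO libraries, 11 of 31 were higher, where 1.25% of all genes were, and none was lower, where 1.3% were. The 11 include Eno1, whose nulliparous values average under 1 FPKM, so that it passed the expression threshold through the multiparous libraries; without it 10 of 30 were higher. These pairs share no library. In both of them, 8 of the 31 genes were at least 1.5-fold higher, namely Pfkl, Tpi1, Pgam1, Bnip3, Pfkfb3, Hilpda, Mif and Fam162a, against 0.576% of all genes. They are 8 of the 16 counted in WT and 8 of the 11 counted in IKO.

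The median log2 ratio of the 13 enzymes was 0.52 in WT and 0.56 in IKO, and that of the 18 other genes was 0.64 and 0.52, beside medians over all genes of 0.06 and -0.02. Of the 16 genes counted in WT, 6 were enzymes, and of the 11 counted in IKO, 5 were, Eno1 among them.

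**Figure D3:**
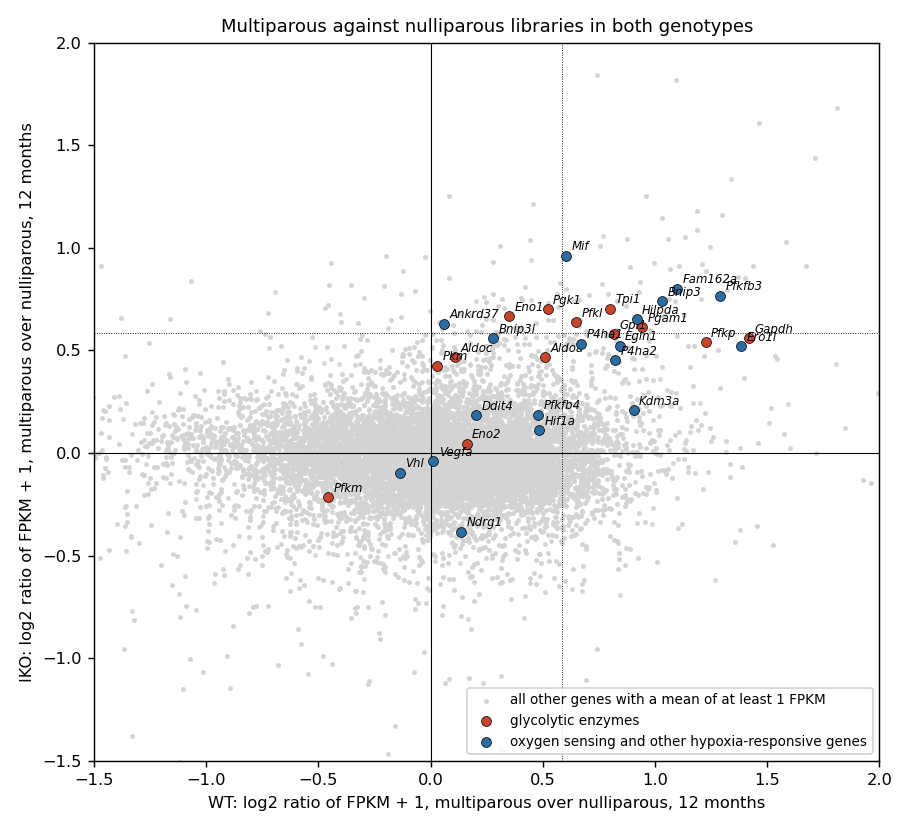
Each point is a gene; the x axis is the log2 ratio of FPKM + 1 between the multiparous and the nulliparous WT library at 12 months, the y axis the same ratio between the IKO libraries, dotted lines mark 1.5-fold, and grey points are all other genes past the expression threshold with no 0 (some lie outside the axes). Most glycolytic (red) and other (blue) genes lie in the upper right, where 8 of them pass 1.5-fold on both axes, and Pfkm lies in the lower left at -0.46 and -0.22.

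The nulliparous WT library of this comparison is the one that stood apart, so both multiparous libraries were also set against the 3-month library of their genotype, in which age and parity differ together. In WT, 19 of 31 genes were at least 1.5-fold higher, where 1.69% of all genes were, and in IKO 17 of 31, where 1.58% were. Read by rank, both multiparous libraries lay above all 4 nulliparous ones for 24 of 31 genes, where 11.9% of all genes did, which were 10 of 13 enzymes and 14 of 18 others. Both lay below for Pfkm, where 9.22% of all genes did. For 8 genes (Gpi1, Pfkl, Tpi1, Pgam1, Bnip3, Pfkfb3, Hilpda and Fam162a) both multiparous values were at least 1.5 times the highest nulliparous one, where 0.557% of all genes met that. This reading by rank and the comparison with 3 months were chosen after the data were seen.

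A model with additive terms for genotype and stage (limma, 2 residual degrees of freedom) gave the spread for a test across all genes. None of the 31 genes was called for parity at an adjusted p of 0.05, where 0.027% of all genes were; the members' adjusted p-values began at 0.334, for Bnip3 (log2 difference 0.89, SE 0.13, higher in 2 of 2 genotypes) and Fam162a (0.95, SE 0.14, higher in 2 of 2). At an unadjusted p under 0.05 stood 19 of 31 genes on the higher side, where 3.99% of all genes did, and 1, Pfkm, on the lower side (log2 difference -0.34, SE 0.11), where 3.41% did.

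Without the nulliparous WT library, limma called 19 of the 31 genes as higher in the multiparous libraries, where 1.39% of all genes were called higher, and none as lower, where 1.28% were. They were 8 enzymes (Gpi1, Pfkl, Pfkp, Tpi1, Gapdh, Pgk1, Pgam1 and Pkm) and 11 others (Egln1, Bnip3, Bnip3l, P4ha1, P4ha2, Ero1l, Ankrd37, Pfkfb3, Hilpda, Mif and Fam162a). In that fit Mif rose by a log2 difference of 0.97 at an adjusted p of 0.0116 and Fam162a by 0.79 at an adjusted p of 0.0212, both higher in 2 of 2 multiparous libraries. The 12-month nulliparous side is then the IKO library alone, assumed to vary like the rest, with 1 residual degree of freedom. Without that IKO library instead, 21 were called higher and 1 lower, but so were 31.8% and 25% of all genes; the 12-month nulliparous side is then the library that stood apart alone.

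Fewer of these genes differed between genotypes. At 3 months none of the 31 was 1.5-fold higher or lower in IKO, where 0.18% of all genes were in each direction. The median log2 ratio was -0.05 beside 0.01 over all genes, with 22 of 31 genes lower in IKO, where 5169 of all 11113 genes were. In the multiparous pair none was 1.5-fold higher or lower either, where 0.54% of all genes were higher and 0.495% lower. The median log2 ratio there was -0.09 beside -0.02 over all genes, with 25 of 31 genes lower in IKO, where 6174 of all 11113 genes were. At 12 months nulliparous, Gapdh and Ero1l were higher in IKO, where 7.16% of all genes were, and Eno1 was lower, where 8.58% were; the members' counts are at or below these shares, and the WT library of the pair is the one that stood apart. limma called none of the 31 genes for genotype, where 0% of all genes were called, and 1 (Pgk1, log2 difference -0.26, SE 0.10) had an unadjusted p under 0.05, where 1.62% of all genes did.

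Whether the parity difference itself differed between genotypes was tested as an interaction in limma, with the 3-month and 12-month nulliparous libraries of a genotype as its 2 nulliparous samples. None of the 31 genes was called, where 0% of all genes were, and none had an unadjusted p under 0.05, where 0.377% did; the smallest unadjusted p among them was 0.164 in limma, for Aldoc. With 2 residual degrees of freedom this does not show that the genotypes respond alike.

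**Figure D4:**
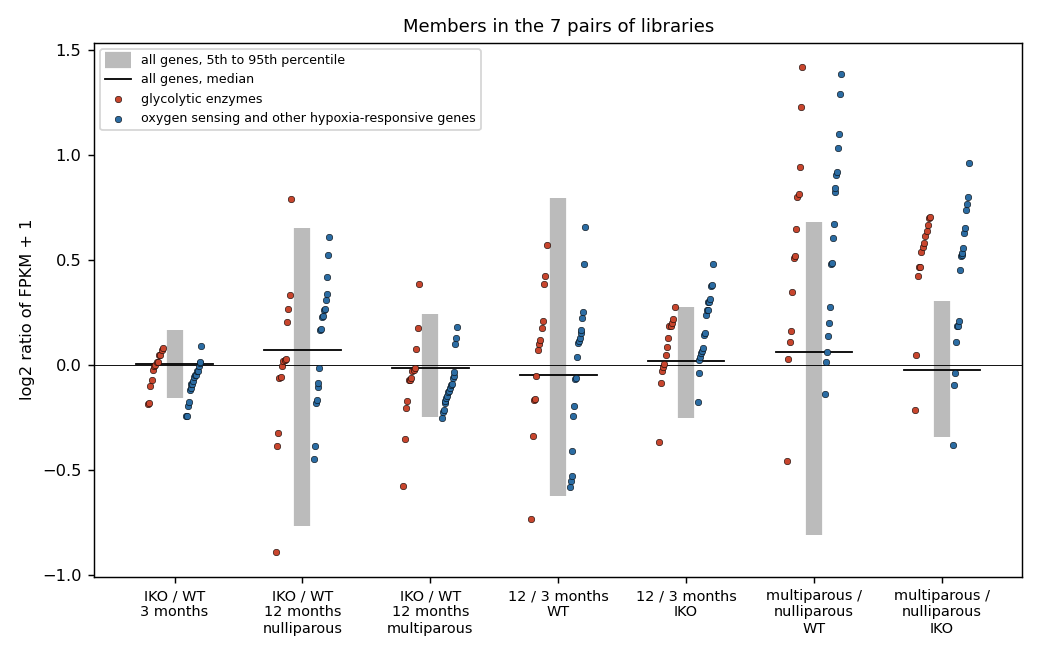
log2 ratio of FPKM + 1 of the glycolytic enzymes (red) and the other genes (blue) in 7 pairs of libraries; grey bars span the 5th to the 95th percentile of all genes past that threshold with no 0, and black lines are their medians. In both multiparous pairs most points lie above the median of all genes, with medians of 0.52 to 0.64. In the IKO against WT pairs at 3 months and after pregnancies the points lie within 1.5-fold of no difference. There 22 and 25 of the 31 lie below 0, where 5169 and 6174 of 11113 genes with a ratio do.

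From 3 to 12 months in nulliparous WT mice, Ankrd37 was at least 1.5-fold higher (9.97 against 5.95 FPKM), where 9.16% of all genes were, and Gapdh was lower, where 6.15% were, again in the library that stood apart. In IKO none was 1.5-fold higher, where 0.882% of all genes were, or lower, where 0.612% were. The median log2 ratio of the 31 genes in IKO was 0.14 beside 0.02 over all genes, with 25 of 31 genes higher at 12 months, where 6248 of all 11109 genes were. limma called none of the 31 for age, where 0.027% of all genes were called, and 3 (Pgk1 and Ankrd37 higher, Pfkfb4 lower) had an unadjusted p under 0.05, where 4.33% of all genes did.

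Genes that feed glycolysis or take up its product were read from wider lists set by name. The lists were chosen with earlier results of these data known, so they are not independent of them. Of the glucose entry genes, 3 of 8 had a mean of at least 1 FPKM. Slc2a1, the widely expressed glucose transporter and a HIF target, was at 10.5 to 13.4 FPKM in the nulliparous libraries and at 26.2 (WT) and 24.7 (IKO) FPKM in the multiparous ones, whereas Slc2a2, the transporter of mature mouse beta cells and one of their markers, was at 59.1 to 78.8 FPKM and then at 37.5 and 51.3 FPKM.

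Of 13 measured genes of pyruvate fate, 3 were at least 1.5-fold higher in the multiparous library of both genotypes where 0.576% of all genes were, and none was lower by as much in both. Both multiparous libraries lay above all nulliparous ones for 5 of the 13 (also Pdk3 and Mpc1) and below for Mpc2, where 11.9% and 9.22% of all genes did. Mpc1 cleared them narrowly, at 16.2 (WT) and 16.5 (IKO) FPKM against 12.5 to 15.7 FPKM. For Mpc2 the margin was narrow in WT, at 46.04 (WT) and 41.8 (IKO) FPKM against 46.16 to 85.4 FPKM. Ldha, which turns pyruvate into lactate, was at 1.42 to 3.25 FPKM in the nulliparous and at 12.2 (WT) and 11.9 (IKO) FPKM in the multiparous libraries; its share of summed Ldha and Ldhb FPKM was 20.4% to 42.1% and then 77.0% and 73.3%. Slc16a3, the lactate exporter MCT4, was at 0.406 to 0.602 FPKM and then at 2.25 and 2.04 FPKM, so that it passed the threshold only through the multiparous libraries. Without it 2 of 12 were at least 1.5-fold higher in both genotypes, and 4 of 12 lay above all nulliparous libraries. Pdk1, the kinase that switches off pyruvate dehydrogenase, was at 5.49 to 6.60 FPKM and then at 12.0 and 10.5 FPKM. Pdha1, a subunit of that dehydrogenase, was level at 38.7 to 42.4 FPKM.

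Of 18 measured further HIF targets, Ak4, a mitochondrial adenylate kinase, was at least 1.5-fold higher in both genotypes, at 0.474 to 0.925 FPKM and then at 3.42 (WT) and 2.93 (IKO) FPKM; it too passed the threshold only through the multiparous libraries. Both multiparous libraries lay above all nulliparous ones for 9 of the 18, or 7 of 16 without the genes that passed in that way, and below for 0, where 11.9% and 9.22% of all genes did. limma with all 6 libraries called none of the genes of these wider lists for parity; the adjusted p was 0.280 for Ldha and Slc16a3. Without the 12-month nulliparous WT library, the limma log2 difference was 0.95 (SE 0.09) for Slc2a1 and -0.73 (SE 0.16) for Slc2a2. It was 1.60 (SE 0.08) for Ldha, 0.94 for Slc16a3 and 0.59 for Pdk1. Among the further HIF targets it was 1.04 for Ak4, 0.41 for Wsb1 and -0.43 for Loxl2. The difference was below 0 for 1 of 3 glucose entry genes, 7 of 13 of pyruvate fate and 4 of the 18 HIF targets. The 12-month nulliparous side of that fit is the IKO library alone.

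Other cell types and the beta cell genes also differed between these libraries. All 8 acinar markers found were at least 1.5-fold lower in both multiparous libraries than in their nulliparous partners. Of all genes past the expression threshold, 9.87% were in WT and 1.3% in IKO, and 5 of the 8 markers were past it. The acinar markers summed to 3.71 to 4.37 FPKM against 6.81 to 73.3 FPKM. Of the 8 beta cell markers, 5 were lower in both pairs (306 to 360 FPKM against 448 to 507 FPKM) and 3 were at 0. Lower by any amount were 4927 of 11116 genes in WT and 6234 of 11109 in IKO. In bulk RNA, fewer cells of a type and less RNA per cell cannot be told apart. The 8 endothelial markers summed to 4.98 to 5.17 FPKM in the multiparous and 4.88 to 11.4 FPKM in the nulliparous libraries, with Esam the highest at 2.95 to 5.38 FPKM. Plvap and Egfl7 reached 1.64 and 2.29 FPKM in the 12-month nulliparous WT library, and Pecam1, Cdh5, Kdr, Flt1 and Tie1 were under 1 FPKM in all 6. The 8 stellate and mesenchymal markers summed to 0.735 to 2.17 against 1.05 to 4.71 FPKM, and the 8 immune markers to 14.0 to 14.5 against 6.26 to 15.5 FPKM. The 6 alpha cell markers summed to 299 to 759 against 501 to 1090.3 FPKM, the 5 delta cell markers to 157 to 232 against 177 to 616 FPKM, and Ppy was at 303 to 361 against 219 to 990 FPKM. The 6 duct markers summed to 526 to 591 against 472 to 564 FPKM, nearly all from Krt7 and Spp1, with Sox9 at or near 0. The part of acinar and other RNA in the differences of the 31 genes was not tested.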

How the data were processed

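RNA of sorted beta cells was measured in 6 libraries, 1 per group. Per the labels' protocols, directional poly-A libraries were read as paired ends of 100 bases. The authors deposited 1 table of FPKM values. Per the submitters' processing notes, the tools were TopHat, Cufflinks and Cuffdiff, run on build mm10; their versions are not given in the sources used here. FPKM depends on gene models, on the division of shared reads and on the total over all genes.

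The table held 23845 rows with values; 1 row had none. To keep 1 row per gene, 758 rows that shared 260 symbols were dropped, which left 23087 genes. No ratio was formed where a library was listed at 0. The 11131 genes whose mean reached 1 FPKM were tested on log2(FPKM + 1) with limma 3.58.1 (R 4.3.3), empirical Bayes with a trend, and Benjamini-Hochberg adjustment over all of them at 0.05. As nothing says that libraries are separate animals, p-values reflect the spread among these 6 libraries only. Alternatives were pseudocounts of 0.1 and 5, other filters, 2 rescalings, no trend and leaving out each library.

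The members and lists were chosen with earlier results of these data known, including that glycolysis genes were higher after pregnancies. By rule, every member past that threshold was described, and those at least 1.5-fold apart in the same direction in both parity pairs (or both age pairs, or at least 2 genotype pairs) with all 6 values; genes of the wider lists were named if they met the parity part. Other genes, such as Pdha1, Pfkfb2, Eno3, Wsb1, Loxl2, Adm, Egln3 and those of the glycogen route, were named after their values were seen. Promoter sequences are from RefSeq (GRCm38.p6). Results for 2 genes of the wider lists are not reported here.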

Additional observations from a re-analysis of the deposited data

Results flagged for a closer look

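Ero1l and Eno1 moved in opposite directions with age in the nulliparous genotypes, each by at least 1.2-fold, and the difference was not tested. From 3 to 12 months the log2 ratio of Ero1l was -0.55 in WT and 0.30 in IKO, and that of Eno1 was 0.57 in WT and -0.37 in IKO. The WT values use the 12-month library that stood apart.

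Among the genes under the expression threshold, which enter no comparison, 2 had both multiparous values above all 4 nulliparous ones. Adm was 5.18-fold higher in the multiparous than in the nulliparous WT library at 12 months and 4.44-fold higher in IKO. Egln3, a HIF hydroxylase that HIF induces, was 2.64-fold and 1.67-fold higher. These folds are ratios of FPKM without the added 1, between values under 3 FPKM, so their size is uncertain.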

How the results depend on the processing

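The median log2 differences of the enzymes and of the other genes kept their sign for parity, at 0.58 to 0.69 for the enzymes and 0.46 to 0.65 for the others over the other settings, and at 0.52 to 0.63 and 0.52 to 0.67 with each library left out. Calls for parity ranged from 0 to 22 of the 31 genes when each library was left out, and calls for age from 0 to 15, the highest counts in both cases without the 12-month nulliparous IKO library; without either 3-month library 1 gene (Pfkfb3) was called for parity. Calls for genotype stayed at 0 under every setting, and so did those for the interaction, for which no library was left out. The parity difference of Vegfa, -0.01, was 0.067 after rescaling without the 20 highest genes, 0.046 with the nulliparous ages as 1 level, and -0.064 to 0.038 with each library left out; that of Ndrg1, -0.12, ranged from -0.36 to 0.11. At least 1.5-fold higher in the multiparous IKO library were 6 genes with a pseudocount of 5, in place of 11. In the 12-month nulliparous pair, 4 genes were higher in IKO with a pseudocount of 0.1, 1 with a pseudocount of 5 and 1 after median ratio rescaling, in place of 2, and 0 were lower with a pseudocount of 5, in place of 1. In the multiparous pair 1 was lower with a pseudocount of 0.1. From 3 to 12 months in WT, 2 were higher with a pseudocount of 0.1, 0 with a pseudocount of 5, 2 after median ratio rescaling and 0 after rescaling without the 20 highest genes, in place of 1, and 3 were lower with a pseudocount of 0.1 and 4 after rescaling without the 20 highest genes, in place of 1; in IKO 1 was lower with a pseudocount of 0.1. The causes were not tested. No paired analysis was possible because each group holds 1 library and replicate numbers pair nothing; the genotype term of the fit already sets stages against each other within a genotype. The depth of the libraries is unknown.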

Other observations

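Both multiparous libraries lay above all 4 nulliparous ones for 6 of 13 measured genes of the side branches of glycolysis, which were 4 glycogen enzymes (Gys1, Gbe1, Pygb and Pygl) and both phosphoglucomutases (Pgm1 and Pgm2), and below for Taldo1 and Pfkfb2, where 11.9% and 9.22% of all genes did. Pygl passed the expression threshold only through the multiparous libraries, and without it the count was 5 of 12. Gys1, glycogen synthase, was at 5.99 to 11.6 FPKM in the nulliparous and at 17.4 (WT) and 15.3 (IKO) FPKM in the multiparous libraries. Gbe1, the branching enzyme, was at 6.71 to 10.02 FPKM and then at 12.0 and 11.7 FPKM, and Pgm2, a phosphoglucomutase, at 24.4 to 29.1 FPKM and then at 35.3 and 36.4 FPKM. Gys1 and Gbe1 had their lowest value in the 12-month nulliparous WT library. None of these genes was 1.5-fold higher in both genotypes, and limma gave adjusted p-values of 0.619 for Pgm2 and 0.646 for Gys1 and Gbe1. Without the 12-month nulliparous WT library, limma called Pgm2 as higher (log2 difference 0.53, SE 0.06, adjusted p 0.0321) and Fbp1, the gluconeogenic fructose bisphosphatase, as lower (-1.26, SE 0.11, adjusted p 0.0256). Fbp1 was at 10.7 to 16.5 FPKM in the nulliparous and at 11.8 (WT) and 5.96 (IKO) FPKM in the multiparous libraries, so its groups overlapped.

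Of the pentose phosphate enzymes, Tkt was at 31.0 to 42.9 FPKM with overlapping groups, and Taldo1 was at 65.6 to 88.2 FPKM in the nulliparous and at 64.2 and 64.6 FPKM in the multiparous libraries. Of 13 measured genes of the HIF machinery outside the 31, both multiparous libraries lay above the others for 1 (Cited2) and below for 1 (Rbx1), which is no more than the shares over all genes given above. Arnt, the partner of HIF1A, was at 13.7 to 17.1 FPKM in all 6 libraries.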
